A study of Arabidopsis thaliana with 6 samples.

Results

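Cytochrome P450 genes were examined in roots of Arabidopsis thaliana exposed to gold. They were chosen as every probe set with 1 named gene whose symbol begins with CYP, then 2 or 3 digits and a letter, which gave 23 of the 22746 probe sets tested, 1 for each of 23 genes. Of these, 19 belong to family 71, every one of them in subfamily CYP71B, and families 51, 78, 79 and 84 had 1 member each. The RefSeq gene table holds 236 genes of such symbols, so most P450 genes and most P450 families are not analysed here.

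The study used roots of ecotype Col 0, grown hydroponically in sealed jars for 14 days, each jar holding many plants. In 3 jars the liquid was exchanged for a gold(III) salt, KAuCl4, at 0.125 mM and pH 5.7, and 3 jars had no gold. Sample labels describe the latter as untreated while the design text has them receive water, and the exposure is 24 h in the labels but 6 h in the treatment protocol, so neither point is settled here. Each jar gave 1 Affymetrix ATH1 array, a chip with short probes grouped into a probe set per transcript, and the comparison asked which root transcripts differ in amount with gold.

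P450s are haem enzymes that use molecular oxygen to hydroxylate or otherwise oxidise small molecules, with electrons passed on from NADPH by a reductase. Plants use them to make hormones, sterols, phenolic compounds, glucosinolates and phytoalexins, and to modify foreign compounds. Family 71 is the largest in Arabidopsis, and its best known CYP71B member, CYP71B15 (PAD3), makes the antimicrobial compound camalexin; PAD3 itself is not analysed here.

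The deposited values are on a log scale read as log2 and are centred, so that 0 is the median of the 6 arrays for each probe set. They hold differences between arrays but no expression level, and a gene silent in roots cannot be told from one expressed evenly on all arrays. For the same reason the levels of marker genes could not be used to check that the tissue was root. In bulk tissue, fewer cells of a type and less RNA per cell cannot be told apart. No gold replicate 1 stood apart from the other arrays: its 5' minus 3' difference was lower by more than 2 on the log2 scale than on any of the other 5 arrays in 3 of the 4 pairs of control probe sets, for example -4.89 against -1.02 to 0.38 for actin. Of the marker genes for other tissues or cell types, 2 of 5 for shoot, 2 of 5 for root hairs and 0 of 3 for endodermis had a probe set annotated to that gene alone. RCA, the Rubisco activase of leaves, fell by 1.49 ± 0.226 (SE; limma adjusted p = 0.00305), PRK, another photosynthesis gene, stood at -1.48 ± 0.492 (limma adjusted p = 0.0737), and the root hair expansins EXPA7 and EXPA18 changed by -2.34 ± 0.354 and -2.36 ± 0.383 (limma adjusted p = 0.00305 and 0.00428). On the centred scale the 4 genes ran from -1.77 (EXPA18) to -0.15 (PRK) on the gold arrays and from 0.15 (PRK) to 2.23 (PRK) on the no gold arrays, so none overlapped between groups. The part of these tissue signals in the P450 changes was not tested.

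With gold, the P450 genes went in both directions and most did not pass the test. CYP71B22 and CYP71B21, neighbours on chromosome 3, rose by 6.21 and 4.97 on the log2 scale, and CYP71B6, an enzyme that oxidises indole-3-acetonitrile, rose by 3.33. CYP71B34 fell by 2.41, CYP71B26 by 1.20, CYP51G2 by 1.20 and CYP71B23 by 1.06. In all, 3 of 23 members were higher and 4 lower at a limma adjusted p below 0.05, beside 9.32% and 10.9% of all probe sets tested. The 7 called members are 30.4% of the 23, against 20.2% of all probe sets and 17.6% of those with 1 named gene; with so few members this gap is a matter of a few genes and was not tested. All 7 also changed by at least 2-fold, so 30.4% of the 23 members both passed and changed by that much, against 13.4% of all probe sets. This gap was not tested either. The median change of the members was 0.02, that of all probe sets -0.045. Without no gold replicate 1, the array with low 5' minus 3' differences, there were 2 higher members and 5 lower ones, beside 9.46% and 11.9% of all probe sets. Among the 7 called with all arrays, 6 passed in the same direction without it.

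**Figure D1:**
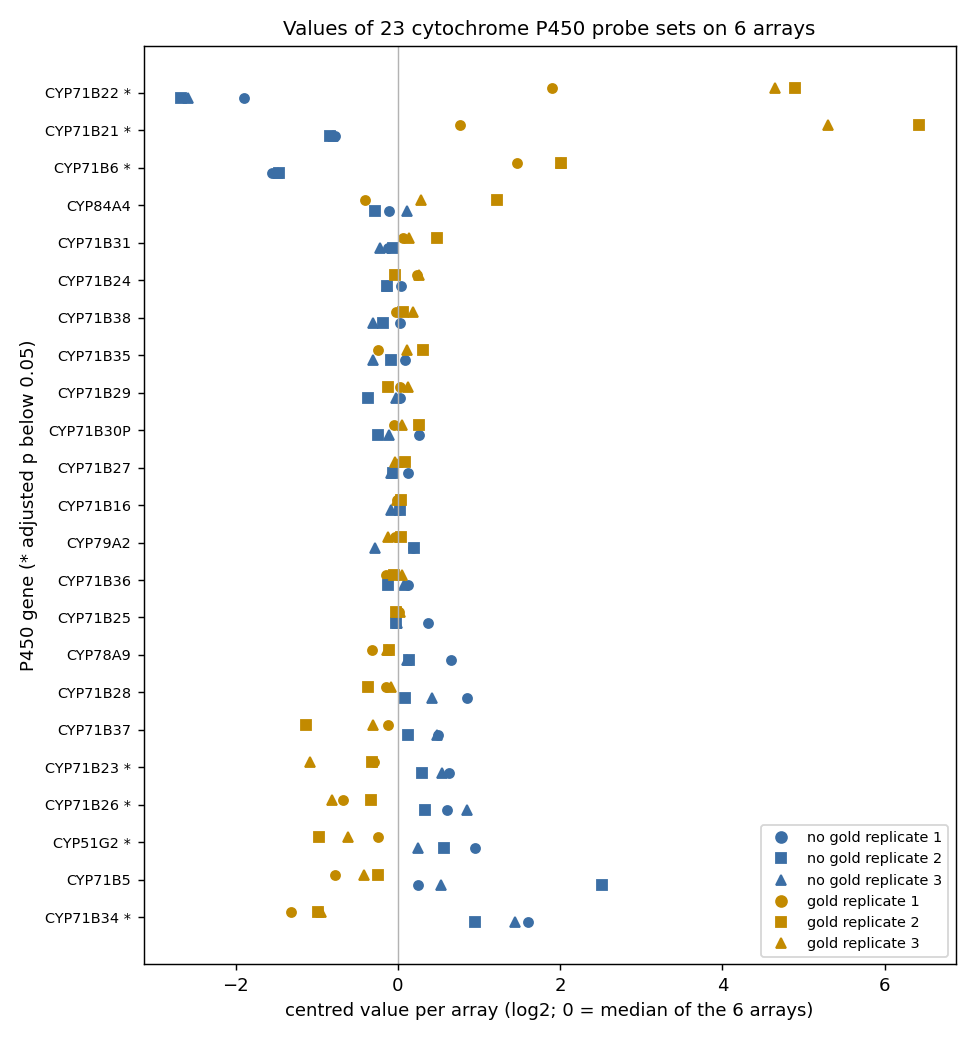
Centred log2 values (x axis, 0 is the median of the 6 arrays) of the 23 P450 probe sets (rows, ordered by their change), with gold arrays in ochre, no gold arrays in blue, a marker shape for each replicate number, and a star beside genes with an adjusted p below 0.05. The 3 genes at the top have gold values from 0.77 to 6.42 and no gold values from -2.68 to -0.77, while the rows in the middle stay near 0 on every array; some markers overlap.

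CYP71B22 (AT3G26200), a member of the tandem CYP71B genes for which no function is stated here, read 1.90, 4.90 and 4.65 on gold replicates 1, 2 and 3, and -1.90, -2.68 and -2.59 on no gold replicates 1, 2 and 3. The groups did not overlap, and gold replicate 1 was the lowest of the gold arrays. The change was 6.21 ± 0.726 (SE, n = 3 and 3), or 74.0-fold, with a limma adjusted p of 0.000884 and a 95% interval from 4.53 to 7.89. The call held with each array left out, with values from 5.67 without gold replicate 2 to 7.17 without gold replicate 1, while quantile normalization gave 5.26 and array quality weights 7.19. It was number 19 from the top among the changes of all 22746 probe sets.

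CYP71B21 (AT3G26190) lies directly beside CYP71B22 in the gene order of the RefSeq table. It read 0.77, 6.42 and 5.30 on gold replicates 1, 2 and 3, and -0.77, -0.84 and -0.80 on the no gold replicates. The groups did not overlap, but the gold jars were far apart, with an SD of 2.99, whereas the no gold arrays differed by less than 0.1. The change was 4.97 ± 1.25 (limma adjusted p = 0.0274; 95% interval from 2.06 to 7.87). The call was lost when any 1 of the arrays except gold replicate 1 was left out, at limma adjusted p values from 0.0637 without no gold replicate 1 to 0.113 without gold replicate 3. Without gold replicate 1 the change was 6.66 (limma adjusted p = 5.84e-05). Neighbouring genes of a tandem group can share probe signal, and probe sequences were not examined here.

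CYP71B6 (AT2G24180) lies alone on chromosome 2, away from the other measured CYP71B genes. The enzyme turns indole-3-acetonitrile, a product of indole glucosinolates and tryptophan, into indole-3-carbaldehyde and indole-3-carboxylic acid. It read 1.47, 2.01 and 2.01 on gold replicates 1, 2 and 3, and -1.55, -1.47 and -1.48 on the no gold replicates. The arrays of each group lay close together and the groups were well apart. The change was 3.33 ± 0.188, or 10.1-fold (limma adjusted p = 4.2e-05; 95% interval from 2.90 to 3.77), and it kept its call with each array left out, with values from 3.24 to 3.51.

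Gold replicate 1 was the lowest gold array for each of the 3 genes that rose. It exceeded the no gold mean by 1.57 for CYP71B21, where gold replicates 2 and 3 exceeded it by 7.22 and 6.10. For CYP71B22 the excesses were 4.29, 7.30 and 7.04 in the same order. For CYP71B6 they were 2.98, 3.51 and 3.51. Over all 2121 probe sets called higher the median excess was also smallest on gold replicate 1, at 1.15 against 1.76 and 1.55. Smaller rises on this array were therefore not confined to the P450 genes.

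CYP71B34 (AT3G26300) had the largest fall of the 23. It read -1.32, -0.98 and -0.95 on gold replicates 1, 2 and 3, and 1.60, 0.95 and 1.44 on no gold replicates 1, 2 and 3. The groups did not overlap, and here gold replicate 1 was the array farthest from the no gold jars. The change was -2.41 ± 0.214, or 5.32-fold lower with gold (limma adjusted p = 0.00026; 95% interval from -2.91 to -1.91), and leaving out single arrays gave -2.60 to -2.27.

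CYP71B26 (AT3G26290) read -0.68, -0.33 and -0.81 on the gold replicates and 0.60, 0.33 and 0.85 on the no gold replicates. All 3 gold arrays lay below all 3 no gold arrays, and the change was -1.20 ± 0.201 (limma adjusted p = 0.0049). CYP71B23 (AT3G26210) read -0.30, -0.32 and -1.08 with gold and 0.63, 0.30 and 0.54 without. Its groups were apart as well, with gold replicate 3 lowest, and the change was -1.06 ± 0.24 (limma adjusted p = 0.0179). Without no gold replicate 3 the call of CYP71B23 was lost (limma adjusted p = 0.0595).

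CYP51G2 (AT2G17330), of the family whose functional member CYP51G1 is a sterol demethylase, was the only called gene among the 4 outside family 71. It read -0.25, -0.97 and -0.61 on the gold replicates and 0.95, 0.57 and 0.25 on the no gold replicates. Each gold array was below each no gold array, and the change was -1.20 ± 0.247 (limma adjusted p = 0.0121); without gold replicate 3 the adjusted p was 0.0552. The RefSeq table records CYP51G2 as a transcribed pseudogene, and whether its probe set also detects CYP51G1, which is not analysed here, was not examined. An equal-variance test run on each probe set by itself, without limma's shared spread, left CYP71B22, CYP71B6 and CYP71B34 called and ended the other 4 calls, with adjusted p values from 0.0505 for CYP71B26 to 0.175 for CYP71B21. With limma treat at 1.5-fold the same 4 calls ended, with adjusted p values from 0.0654 for CYP71B21 to 0.322 for CYP71B23.

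**Figure D2:**
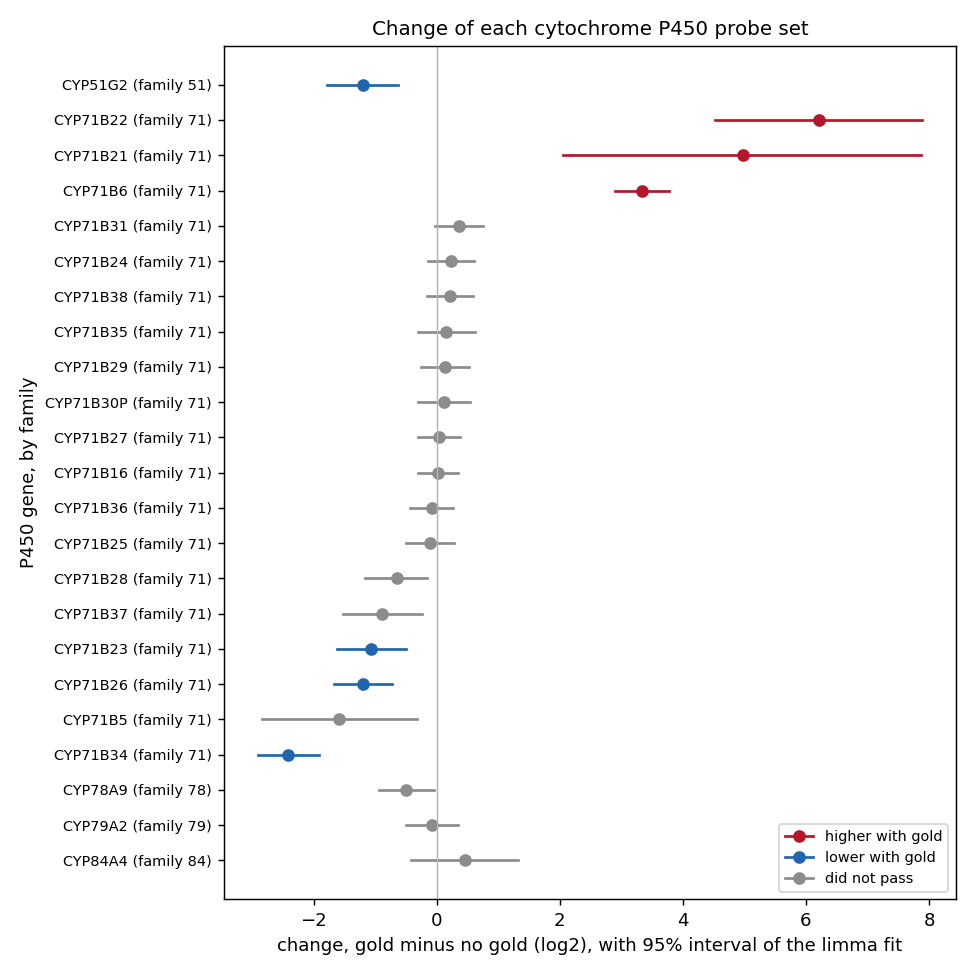
Change of each P450 probe set (x axis, gold minus no gold, log2) with the 95% interval of the limma fit, grouped by P450 family; red marks genes higher with gold, blue genes lower and grey genes that did not pass. The widest interval is that of CYP71B21, from 2.06 to 7.87, and 11 of the 16 grey genes varied by less than the median probe set over the 6 arrays.

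The other 16 members did not pass, with changes from -1.58 to 0.46. Among them, CYP71B5, CYP71B28, CYP71B37 and CYP78A9 were lower and CYP71B31 was higher on every gold array than on any no gold array. Counting the called genes too, the groups did not overlap in 4 members in the direction higher with gold and 8 in the direction lower, where 15.6% and 21.6% of all probe sets did so.

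CYP71B5 (AT3G53280) read -0.77, -0.25 and -0.42 with gold and 0.25, 2.52 and 0.53 on no gold replicates 1, 2 and 3. The single high value of no gold replicate 2 stood apart from the other no gold arrays, and the change was -1.58 ± 0.544 (limma adjusted p = 0.083). The shoot gene PRK was also highest on that array, at 2.23 against 0.58 and 0.15 on no gold replicates 1 and 3. So were the shoot gene RCA (1.14 against 0.42 and 0.89) and the root hair gene EXPA7 (1.73 against 0.56 and 1.29). The root hair gene EXPA18 was not (1.45 against 0.49 and 1.48). The part of these signals in the value of CYP71B5 was not tested. Without no gold replicate 2 the change of CYP71B5 was -0.87 (limma adjusted p = 0.0535), and without no gold replicate 1 it was -2.0 and passed (limma adjusted p = 0.0429).

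CYP71B37 (AT3G26330) read -0.12, -1.13 and -0.31 with gold and 0.49, 0.12 and 0.48 without, a change of -0.88 ± 0.276. It missed the threshold narrowly (limma adjusted p = 0.0618) and passed without gold replicate 1 (limma adjusted p = 0.0336). CYP71B28 (AT1G13090) read -0.15, -0.37 and -0.09 with gold and 0.85, 0.09 and 0.42 without, a change of -0.65 ± 0.218 (limma adjusted p = 0.0755). It passed without no gold replicate 2 (limma adjusted p = 0.0499). For both genes only a small gap separated the groups.

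CYP78A9 (AT3G61880), a P450 that promotes growth of fruits and seeds, read -0.32, -0.11 and -0.13 with gold and 0.65, 0.14 and 0.11 without. No gold replicate 1 was the high array, and the change of -0.49 ± 0.193 (limma adjusted p = 0.125) was -0.31 without it. CYP84A4 (AT5G04330), which takes part in making the phenolic arabidopyrones, read -0.41, 1.22 and 0.28 with gold and -0.11, -0.28 and 0.11 without. Only gold replicate 2 was clearly high, and the change was 0.46 ± 0.374 (limma adjusted p = 0.483; 95% interval from -0.41 to 1.32). CYP79A2 (AT5G05260), which turns phenylalanine into its aldoxime on the way to benzyl glucosinolate, was at -0.07 ± 0.18 (95% interval from -0.49 to 0.35).

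Of the members that did not pass, 11 had values over the 6 arrays that spanned less than 0.82, the median span of all probe sets. These are 11 of all 23 members, about the share that a median sets, so narrow spans were about as common here as elsewhere. This count does not describe the wide spans, which reached 7.59 for CYP71B22. The narrowest was CYP71B16, with a span of 0.12 and a change of 0.02 ± 0.139 (95% interval from -0.30 to 0.34). The others in this class were CYP71B24, CYP71B25, CYP71B27, CYP71B29, CYP71B30P, CYP71B31, CYP71B35, CYP71B36, CYP71B38 and CYP79A2. Their changes lay between -0.11 for CYP71B25 and 0.36 for CYP71B31. CYP71B31 was the one with groups apart, at 0.06, 0.48 and 0.14 with gold against -0.12, -0.06 and -0.22 without (limma adjusted p = 0.187). CYP71B27 is the other member recorded as a transcribed pseudogene, and it stood at 0.04 ± 0.146.

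CYP71B genes that rose, fell and did not pass lay side by side on chromosome 3. The RefSeq table places 18 CYP71B genes near each other on chromosome 3, from CYP71B16 to CYP71B37, of which 11 were measured: 2 rose, 3 fell and 6 did not pass. The called genes are 45.5% of the 11, beside 20.2% of all probe sets, a gap of a few genes that was not tested. Along this group CYP71B16 was at 0.02, CYP71B21 and CYP71B22 rose by 4.97 and 6.21, and the next gene, CYP71B23, fell by 1.06. After CYP71B24 (0.23) and CYP71B25 (-0.11) came the falls of CYP71B26 (-1.20) and CYP71B34 (-2.41), then CYP71B35 (0.16), CYP71B36 (-0.08) and CYP71B37 (-0.88). None of the 3 members of a second group on chromosome 3 (CYP71B5, CYP71B30P and CYP71B31) or of the 3 on chromosome 1 (CYP71B27, CYP71B28 and CYP71B29) passed the test. With 3 members each, these groups are too small to be set against the larger one. A probe set that the annotation lists for 2 CYP71B genes of the larger group was not counted as a member and was at 0.04 ± 0.316. Without no gold replicate 1 it was at 0.41 and did not pass (limma adjusted p = 0.166). Another probe set listed for 2 genes, with a symbol fitting the rule among them, was at 0.17 ± 0.226 (limma adjusted p = 0.711).

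**Figure D3:**
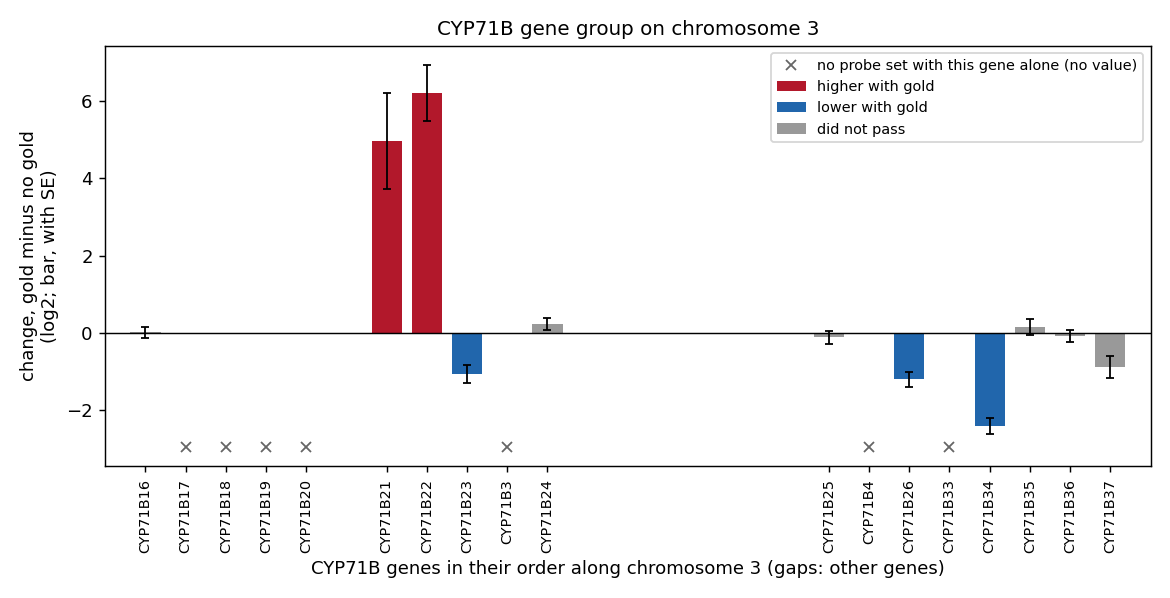
Change with gold (y axis, gold minus no gold, log2, bars with the SE of the limma fit) of the CYP71B genes of chromosome 3 in their gene order, where gaps stand for other genes and crosses mark genes without a probe set annotated to that gene alone, which have no value. The 2 tall red bars, 4.97 and 6.21, stand next to the blue bar of CYP71B23 at -1.06, and the largest fall, -2.41, is that of CYP71B34.

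Immediate neighbours were compared in each of the 7 pairs of adjacent measured genes, as the difference of the 2 centred values within each array, gold against no gold. Errors in this paragraph come from the spread of these differences over the 3 arrays of each group, not from the limma fit. CYP71B22 minus CYP71B23 ran from 2.21 to 5.73 on the gold arrays and from -3.13 to -2.54 on the no gold arrays, a difference of changes of 7.27 ± 1.11. CYP71B34 minus CYP71B35 ran from -1.28 to -1.06 with gold and from 1.04 to 1.74 without, a difference of -2.57 ± 0.219. In these and in 3 further pairs, CYP71B28 and CYP71B29 (-0.79 ± 0.13), CYP71B36 and CYP71B37 (0.80 ± 0.331) and CYP71B5 and CYP71B30P (-1.70 ± 0.843), where neither gene was called, the groups were apart. These 5 of the 7 pairs had a two-sided exact permutation p of 0.1, the smallest that 3 against 3 arrays allow (0.14 after Benjamini-Hochberg adjustment over the 7 pairs). No pair could therefore fall below 0.05. For CYP71B22 and CYP71B23 the gap was fixed by their own values, which were apart in opposite directions. Each other such pair held a gene whose own groups were apart. How often pairs of other probe sets were apart was not counted, so whether 5 of 7 is unusual is not known. CYP71B35 and CYP71B36 overlapped, at 0.24 ± 0.185 (exact permutation p = 0.4). For CYP71B21 minus CYP71B22 the groups overlapped too, with a difference of changes of -1.24 ± 0.814 (exact permutation p = 0.2), which does not show that these neighbours rose alike.

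**Figure D4:**
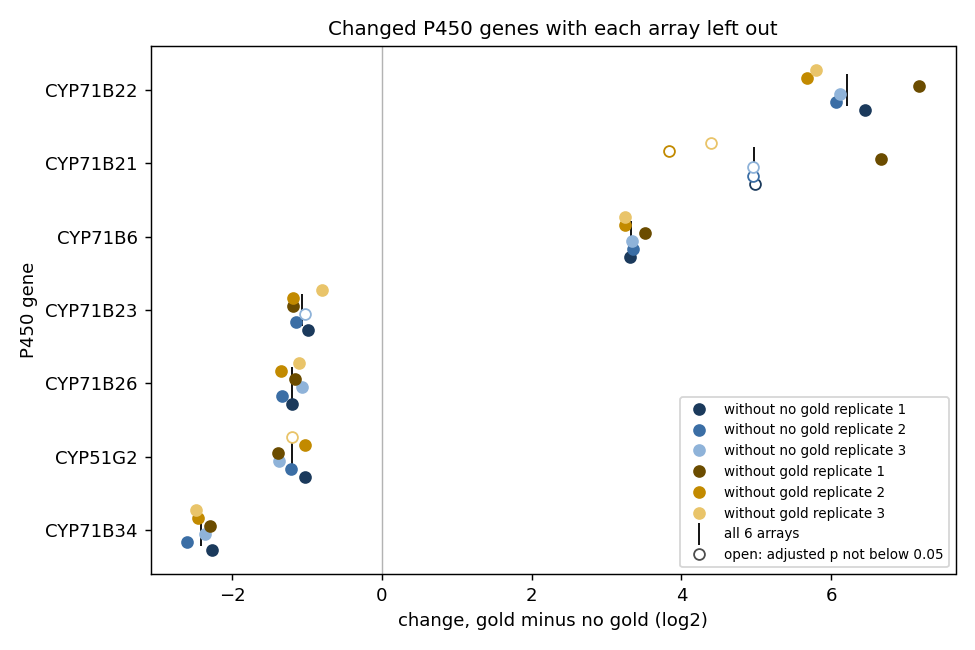
Change (x axis, gold minus no gold, log2) of the 7 called P450 genes (rows) with all 6 arrays, as a black tick, and with each array left out, as a point coloured by the array; open points have an adjusted p not below 0.05. CYP71B21 has 5 open points and spans 3.84 to 6.66, CYP71B23 and CYP51G2 have 1 open point each, and no point crosses 0.

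Other genes of P450 biochemistry could not be followed. None of the 8 listed redox partners (P450 reductases, cytochromes b5 and their reductase), none of the 12 genes of the tryptophan route to camalexin and indole glucosinolates, and none of the 18 P450 genes of hormone, sterol, phenylpropanoid and other pathways known by another symbol had a probe set named for that gene alone, so they are not analysed here. One P450 gene outside the symbol rule was measured: CYP718 (AT2G42850), whose symbol has no subfamily letter. It read -0.58, -0.90 and -1.46 with gold and 1.60, 0.58 and 1.41 without. The groups were apart, and CYP718 fell by 2.18 ± 0.322 (limma adjusted p = 0.00278), with a change of -1.98 without no gold replicate 1 (limma adjusted p = 0.00896).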

How the data were processed

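Values for 22810 probe sets on 6 arrays were used on the log2 scale as deposited, where the authors had centred each row to a median of 0 (checked within 1e-06). The base 2 was read from the values; how probes were summarised and arrays scaled is not given in the sources used here, and centring leaves no expression level, so no filter on dim probe sets was possible. Per the labels' protocols, RNA was extracted with an RNeasy kit and labelled with biotin by MessageAmp II. Control probe sets (64) were removed and the remaining 22746 were fitted with limma 3.58.1 in R 4.3.3 (lmFit, eBayes, two-sided, Benjamini-Hochberg over all of them, threshold 0.05). Errors are standard errors of that fit, except for pairs of adjacent genes, where they come from the spread of the within-array differences. Replicates are jars, per the design text. Names come from GEO's platform annotation (13513 probe sets with 1 gene, 503 with several, 8730 unlisted); all 23 members matched the TAIR10.1 RefSeq gene table by gene ID, used for names and gene order only. The text names every member, the passing genes of the pathway and marker lists, and up to 5 rises and 5 falls of other P450 genes. Members and lists were chosen with earlier results of these data known. In a simulated gold comparison of 22746 probe sets, 28 of 100 changes of 1 and 79 of 100 changes of 2 (log2) were called, with 3 false calls. The simulation left 22546 probe sets unchanged, whereas 4601 were called in the data. The Benjamini-Hochberg cutoff depends on that share, so these rates do not carry over to the gold comparison. Alternative settings were centring arrays on their medians, quantile normalization, array weights, a replicate block, leaving out each array, limma treat, an equal-variance test for single probe sets, robust empirical Bayes, and dropping probe sets with a shared-sequence suffix. Figures used matplotlib 3.10.9.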

Additional observations from a re-analysis of the deposited data

How the results depend on the processing

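No called P450 gene changed direction under any alternative. The counts of 3 higher and 4 lower were 8 and 8 with array quality weights, whose estimation did not converge and which ran from 0.155 (no gold replicate 1) to 15.8 (gold replicate 3). The count of lower genes was 1 with limma treat at 1.5-fold and 1 with the ordinary test, which also ended the call of CYP718 (0 called). Leaving out each array gave 2 to 3 higher and 3 to 5 lower. Quantile normalization added CYP71B37 (limma adjusted p = 0.0408). Over all probe sets, 4601 calls (2121 higher, 2480 lower) became 11808 (5442 and 6366) with array weights, 1725 (968 and 757) with treat and 1937 (922 and 1015) with the ordinary test; with arrays left out they ranged from 2520 to 5081 (1262 to 2432 higher, 1258 to 2717 lower). With the replicate block 3 P450 genes were higher and 6 lower, adding CYP71B5 (limma adjusted p = 0.0398) and CYP71B37 (0.0343); deviations of arrays that share a number correlated at -0.11, -0.25 and 0.28 (replicates 1, 2 and 3), so the numbers were not taken as pairs. The cause of these differences was not tested. No member's probe set had a shared-sequence suffix, so that alternative changed nothing. The number of arrays and the missing expression levels limit the precision.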
